A study of Danio rerio with 6 samples.

Results

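The comparison described here is the change between shield stage and tailbud stage in zebrafish embryos that had been treated with SB505124 from sphere stage. It takes 2 of the 6 samples of the series, sphere-treated tailbud and sphere-treated shield, and all 13321 RefSeq transcript records of the deposited table. SB505124 is a small molecule that blocks the type I receptors for Nodal, activin and TGF-beta, and all 6 samples received it. What differed between samples was the stage at onset, sphere or 30% epiboly, and the stage at harvest, shield, tailbud or 7 somites. Each group is 1 labelled sample of 30 to 60 frozen whole embryos, and total RNA was sequenced. No untreated group was analysed here, so every difference below is a difference between drug-treated embryos. The epiboly-treated tailbud and shield samples serve as the comparison set. The sphere-treated 7 somites sample enters only at the close, for a few named genes.

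Shield stage opens gastrulation and tailbud stage closes it. In between, the germ layers are sorted, maternal messages are replaced by zygotic ones, and the body axis is patterned from head to tail. Nodal ligands with their co-receptor act on the margin of the blastula to specify mesoderm and endoderm. Embryos without Nodal signalling in the blastula are known to lack most head and trunk mesoderm and endoderm, to keep some tail somites, and to have an open neural tube in the anterior brain. Sphere stage lies before 30% epiboly, so that treatment began earlier in sphere-treated embryos. The labels do not say whether or when the inhibitor was removed, so the period of exposure after onset is not known.

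All levels below are the authors' upper-quartile normalized group means with their deposited standard errors, written as mean ± SE. The steps are log2((tailbud + 5)/(shield + 5)), so a positive step means higher at tailbud. The constant of 5 understates the change of low genes. The form of the deposited errors fits 3 values behind each mean. The sources used here do not say whether those came from separate clutches, so that p-values measure only the spread between such values. The steps were tested with limma on the deposited means and errors, adjusted over all 13321 records by Benjamini-Hochberg, and a record was called at an adjusted p under 0.05.

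Gastrulation in sphere-treated embryos moved a large part of the table. At tailbud 2665 records were higher (20% of records) and 5764 were lower (43.3%), and the median step of all records was -0.23. At least 2-fold steps with a call were counted in 1091 records upward (8.19%) and 2078 downward (15.6%), and 53 records rose and 33 fell at least 16-fold. The standard error of a step had a median over records of 0.13 and a 95th percentile of 0.34. The excess of lower calls depends on the scale. With the group totals made equal the split became 4499 higher and 3403 lower, the median became 0.08, a shift of the median by about 0.31 on the log2 scale that was smaller for low records because of the constant of 5. With the steps centred on their median, 3956 records were higher and 3963 lower. Steps smaller than that shift therefore have no firm direction, and the list medians below are to be read beside the median of all records. Likewise, list counts are to be read beside the 20% higher and 43.3% lower of all records. No record in the table had a highest group mean under 101, so that a listed gene that was low in all 6 groups is missing from its list, and a list's counts describe only the members in the table. Because whole embryos were pooled, fewer cells of a type and less RNA per cell cannot be told apart.

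**Figure D1:**
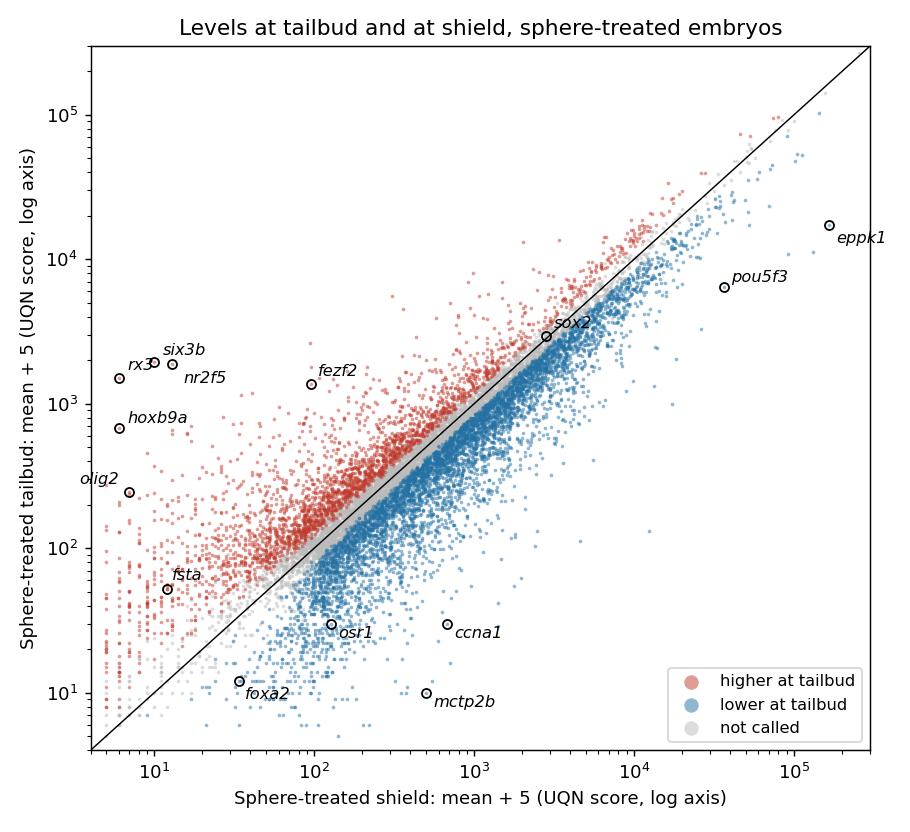
Sphere-treated tailbud means (vertical) against sphere-treated shield means (horizontal), both with 5 added and on log axes in upper-quartile normalized units, with 1 point per record coloured by call and the line marking equal levels. Genes of the eye field and Hox clusters such as rx3 and hoxb9a sit far above the line, egg and cleavage messages such as ccna1 far below it, and sox2 on it.

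The 3 largest rises were those of rx3, six3b and nr2f5. Rx3, a homeodomain factor of the eye field, had 1515 ± 194 at tailbud and 1 ± 0.667 at shield (step 7.98, adjusted p = 1.6e-05). Six3b, which marks the anterior forebrain and eye field, had 1927 ± 238 at tailbud and 5 ± 1.53 at shield (step 7.59). The nuclear receptor gene nr2f5 followed with 1867 ± 458 at tailbud and 8 ± 2.19 at shield (step 7.17). All of these were close to absent at shield, so the size of each step rests mainly on its tailbud level. The other 9 of the 12 largest rises were hoxb9a, bmp3, hoxc3a, pax2a, dmbx1a, hoxc8a, apoa4b.1, hoxb10a and olig2, with steps between 6.83 and 5.14. They cover Hox genes of the trunk and tail, the midbrain and midbrain-hindbrain genes dmbx1a and pax2a, the motor neuron and oligodendrocyte factor olig2, and the lipoprotein gene apoa4b.1.

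The list of forebrain and eye field genes had 25 of 32 members measured, of which 16 rose and 1 fell, with a median step of 1.94. A mean of at least 100 at sphere-treated shield or tailbud was also reached by 16 of the 25. The rest are in the table through other groups, so the near 1-sided count is no test of direction. Pax6b, a factor of the eye and forebrain, rose to 1781 ± 56.5 at tailbud, against 90 ± 28.3 at shield (step 4.23, adjusted p = 0.00022). Fezf2, a zinc finger factor of the anterior forebrain, had 1377 ± 154 at tailbud and 90 ± 42.6 at shield (step 3.86). Otx1, an orthodenticle factor of forebrain and midbrain, was on at both stages, with 4784 ± 375 at tailbud and 2084 ± 604 at shield (adjusted p = 0.022). The member that fell was six3a, the second six3 gene of zebrafish, with 69 ± 5.13 at tailbud and 128 ± 25.7 at shield (step -0.85, adjusted p = 0.022), a call that was lost under equal totals (adjusted p = 0.093). Its paralog six3b went the other way.

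Midbrain and hindbrain genes behaved much like forebrain genes. Of 31 measured members 22 rose, 1 fell, and the median step was 1.78. A mean of at least 100 at sphere-treated shield or tailbud was reached by 25 of the 31. The rest are in the table through other groups, so this count is no test of direction either. Pax2a, which marks the midbrain-hindbrain boundary, had 613 ± 280 at tailbud and 8 ± 1.53 at shield (step 5.57), and its tailbud error was the widest of the 12 largest rises relative to its mean. Wnt1, a signal of the same boundary, had 104 ± 50.6 at tailbud and 3 ± 1 at shield (step 3.77). Fgf8a, the FGF ligand of that boundary and of the gastrula margin, had 1071 ± 154 at tailbud and 361 ± 47.9 at shield (step 1.56, adjusted p = 0.0016). Egr2b, the factor of rhombomeres 3 and 5 known as krox20, was only starting, with 35 ± 16.3 at tailbud and 4 ± 1.45 at shield, and reached 886 ± 55.6 at 7 somites. Meis3, a Hox cofactor of the hindbrain, had 772 ± 107 at tailbud and 204 ± 25 at shield (step 1.89). The 1 fall was pou5f3, a pluripotency factor that the hindbrain also uses.

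Hox genes, which give cells their position along the body axis, formed the list with the highest median step, 3.51. Of 28 measured members 25 rose and none fell. The sphere-treated shield means of all 28 summed to only 191, most of it from hoxb1b. Since every record reached a mean of 101 in some group, the other members are in the table through groups other than sphere-treated shield. They had little room to fall, so the 1-sided count is no test of direction. The 3 members that were not called were hoxb2a, hoxa2b and hoxd11a, named here after their values were seen, and none of them exceeded a mean of 7 at tailbud. Hoxb1b, an early hindbrain Hox gene, had 1478 ± 147 at tailbud and 126 ± 45.6 at shield (step 3.50, adjusted p = 0.00071). Hoxb9a, of the trunk and tail, had 676 ± 103 at tailbud and 1 ± 0.882 at shield (step 6.83). Hoxb7a had 203 ± 46.5 at tailbud and 1 ± 0.333 at shield (step 5.12). Hoxb5a was one of 9 members listed at 0 at shield, and had 15 ± 2.03 at tailbud. Without those 9 the median step of the list was 3.53. Other lists held 1 or 2 such members, without which the medians were 1.68 (forebrain and eye field), 2.21 (preplacodal), 0.29 (pan-neural), 1.12 (neurogenesis), 0.66 (posterior and tailbud), 0.59 (prechordal and hatching gland), 0.43 (retinoic acid) and 0.00 (skeletal muscle, against 0.45 with all 12 members).

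The wider list of posterior and tailbud genes was mixed, with 18 of 29 members higher, 8 lower and a median step of 0.80. The caudal-type genes cdx4 and cdx1a, which activate Hox genes, rose. Cdx4 had 7337 ± 88.9 at tailbud and 4219 ± 506 at shield (step 0.80), and cdx1a had 4789 ± 20.9 at tailbud and 1627 ± 479 at shield (step 1.55). Eve1, a ventral and posterior homeobox gene, fell to 1248 ± 113 at tailbud, against 2493 ± 258 at shield (adjusted p = 0.003). The mesodermal T-box genes of the margin fell as well. Tbxta, the Brachyury gene needed for notochord and tail, had 2229 ± 103 at tailbud and 5735 ± 947 at shield (step -1.36, adjusted p = 0.0018). Tbx16, known as spadetail, had 953 ± 153 at tailbud and 4884 ± 1256 at shield (step -2.35).

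Genes of neuron formation rose in 18 of 31 measured members and fell in 5, with a median step of 1.09. Neurog1, the proneural factor of primary neurons, had 310 ± 74.1 at tailbud and 23 ± 8.51 at shield (step 3.49). Ebf2, which acts after it, had 212 ± 29.1 at tailbud and 8 ± 3.61 at shield (step 4.06). Elavl3, an RNA-binding protein of newborn neurons, had 214 ± 102 at tailbud and 22 ± 4 at shield (step 3.02, adjusted p = 0.0038). The Notch ligand gene dla was on at both stages and rose, with 1579 ± 25.3 at tailbud and 741 ± 166 at shield (step 1.09). Cxcr4b, the chemokine receptor on that list, went the other way with 382 ± 20.6 at tailbud and 3591 ± 441 at shield (step -3.22, adjusted p = 7.3e-05).

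Pan-neural genes went both ways. Of 31 members 13 rose and 8 fell, with a median step of 0.34. Of the SoxB1 genes, sox19a and sox3, which are already on in the blastula ectoderm, fell. Sox19a had 8134 ± 420 at tailbud and 15222 ± 351 at shield (step -0.90), and sox3 had 3663 ± 272 at tailbud and 6913 ± 759 at shield (step -0.92, adjusted p = 0.0037). Sox2 stood at 2961 ± 129 at tailbud and 2822 ± 77.3 at shield, and was not called (step 0.07, adjusted p = 0.55). Later neural plate genes rose, among them zic1 with 1496 ± 15.8 at tailbud and 102 ± 28.6 at shield (step 3.81), and sox21a with 75 ± 35.9 at tailbud and 2 ± 0.333 at shield (step 3.51). Sox1b was listed at 0 at shield and had 43 ± 26.9 at tailbud. N-cadherin, cdh2, whose protein holds neural plate cells together, rose by less, with 7575 ± 298 at tailbud and 5011 ± 335 at shield (step 0.60, adjusted p = 0.0047).

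At the border of the neural plate, preplacodal genes had 12 of 16 members higher and none lower, with a median step of 2.21. Of the 16 members, 10 reached a mean of at least 100 at sphere-treated shield or tailbud. The rest are in the table through other groups, so the 1-sided count is no test of direction. Six4b had 1145 ± 157 at tailbud and 30 ± 5.33 at shield (step 5.04), and pitx3, a lens and pituitary placode factor, had 124 ± 62.6 at tailbud and 1 ± 0.333 at shield (step 4.43). Dlx3b, a factor of the placode field, had 5706 ± 296 at tailbud and 1214 ± 405 at shield (step 2.23, adjusted p = 0.003). Foxi1, needed for the ear placode, had 2721 ± 358 at tailbud and 2552 ± 298 at shield and was not called (step 0.09, adjusted p = 0.72). The neural crest list gave 8 higher and 6 lower of 21, with a median step of 0.34. Pax3a and msx2b, genes of the crest border, rose to 728 ± 130 and 237 ± 35.4 at tailbud, against 40 ± 7.42 and 22 ± 8.19 at shield. The crest specifiers foxd3 and snai2, which have earlier roles at the margin and organizer, fell. Foxd3 had 182 ± 19.4 at tailbud and 596 ± 71.3 at shield (step -1.68), and snai2 had 206 ± 42.3 at tailbud and 1559 ± 204 at shield (step -2.89).

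Epidermal genes were split, with 21 of 44 higher, 11 lower and a median step of 0.29. Tp63, the regulator of basal epidermis, rose to 5007 ± 101 at tailbud, against 706 ± 151 at shield (step 2.82, adjusted p = 0.00029). Grhl2b, a Grainyhead factor of epithelia that is also known for roles in neural tube closure in the mouse, had 722 ± 90.9 at tailbud and 26 ± 3.84 at shield (step 4.55). Its paralog grhl3, an early gene of the outer layer, fell to 1065 ± 115 at tailbud, against 3474 ± 414 at shield (step -1.70). Eppk1, which codes for epiplakin of the outer layer, fell to 17367 ± 204 at tailbud, against 165725 ± 8358 at shield (step -3.25, adjusted p = 1.8e-05). E-cadherin, cdh1, had 5013 ± 131 at tailbud and 5797 ± 175 at shield and was not called (step -0.21, adjusted p = 0.078).

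**Figure D2:**
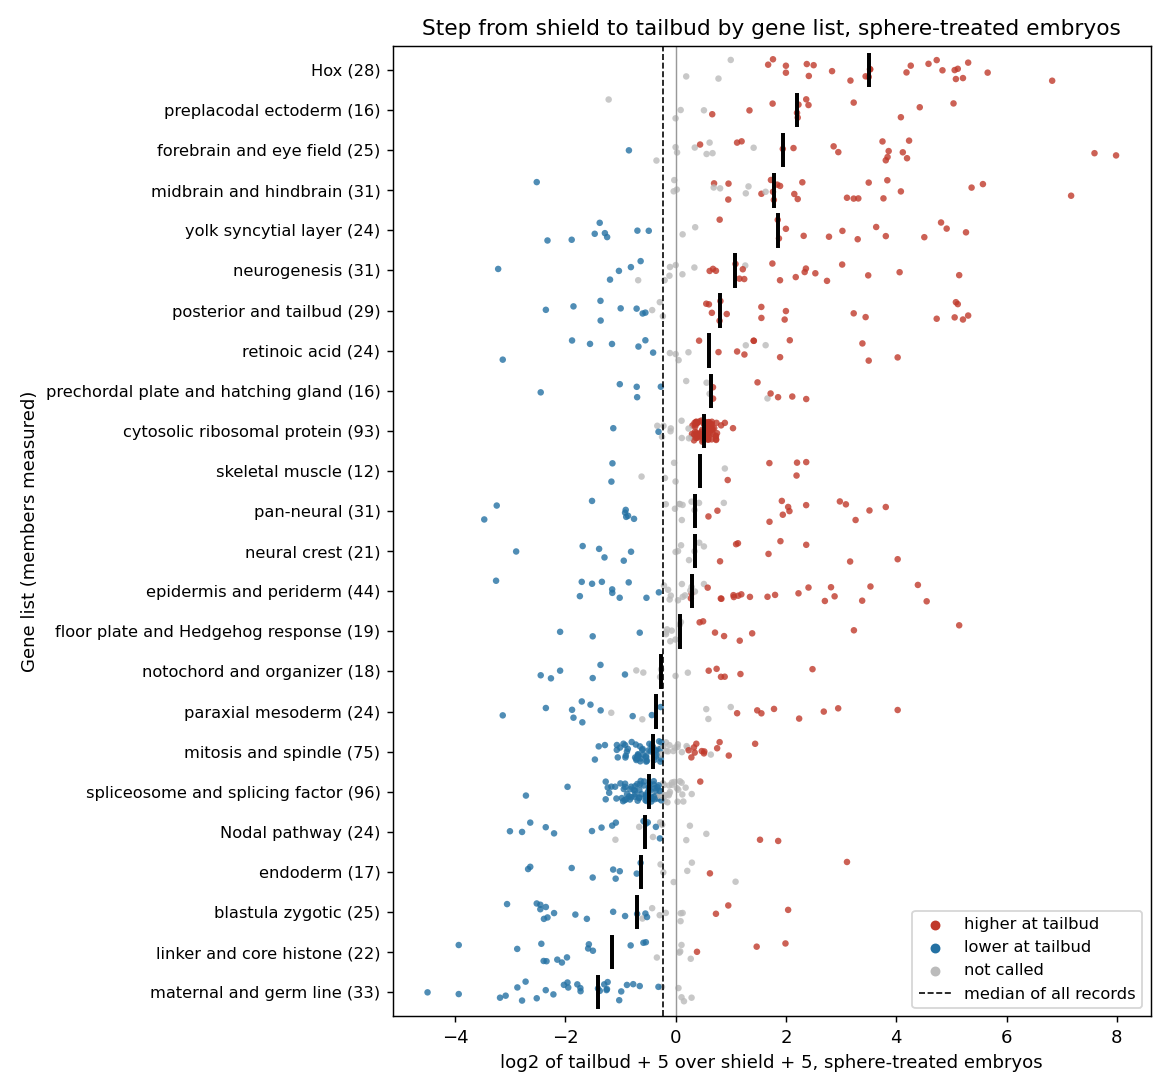
Step of every measured member of 24 gene lists in sphere-treated embryos, on the log2 scale, coloured by call, with the number of members in brackets, a bar at each list's median and a dashed line at the median of all records, -0.23. Hox, preplacodal, forebrain and hindbrain lists lie mostly to the right, and maternal, histone, blastula and Nodal lists to the left.

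The genes that fell furthest were of varied function. Mctp2b, which codes for a membrane protein with C2 domains, had 5 ± 1 at tailbud and 498 ± 160 at shield (step -5.65, adjusted p = 0.00013). Gcnt7, of the glucosaminyltransferase family, had 7 ± 1.53 at tailbud and 543 ± 65.3 at shield (step -5.51). Lrmp, cadps2, b4galnt4b, fam169ab, dock1, cnksr2b, pnp4a, bcas3 and stap2a were also among the 12 largest falls, with steps between -5.13 and -4.12. Dock1, an activator of Rac in cell movement, had 98 ± 9.29 at tailbud and 2400 ± 633 at shield (step -4.55). Ccna1, the cyclin of the germ line and early cleavages, had 25 ± 2.73 at tailbud and 672 ± 226 at shield (step -4.50).

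Maternal and germ line genes fell as a list, with 28 of 33 measured members lower and none higher, and a median step of -1.41. Members under 101 at tailbud, such as cth1 and zar1, are in the table through other groups. Part of the 1-sided count follows from that rule, so it is no test of direction. The linker histone gene of the egg, h1m, had 114 ± 18.2 at tailbud and 1810 ± 433 at shield (step -3.93). Pou5f3, which with nanog activates the zygotic genome, had 6400 ± 1199 at tailbud and 36652 ± 3287 at shield (step -2.52, adjusted p = 0.00038). Nanog itself had 486 ± 83.3 at tailbud and 1619 ± 506 at shield (step -1.73, adjusted p = 0.01). Cth1, an egg zinc finger gene, had 19 ± 0.577 at tailbud and 153 ± 48.1 at shield (step -2.72), and zar1 had 94 ± 6.01 at tailbud and 196 ± 6.03 at shield (step -1.02). This list, the Hox list and all other gene lists here were chosen with earlier results of these data known. Their directions are therefore no separate evidence.

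The early zygotic genes of the blastula fell in 15 of 25 measured members and rose in 3, with a median step of -0.70. The ventral repressor genes vox and vent, which oppose the organizer, were not called. Vox had 2949 ± 99.7 at tailbud and 3601 ± 319 at shield (step -0.29), and vent had 898 ± 73.9 at tailbud and 1207 ± 196 at shield (step -0.42). Zic2a was the member with the highest step, with 4088 ± 225 at tailbud and 990 ± 136 at shield (step 2.04). Histone genes fell in 14 of 22 members and rose in 3, with a median step of -1.16. Hist2h3c had 249 ± 25.5 at tailbud and 1367 ± 59.8 at shield (step -2.43).

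Among the components of the Nodal pathway itself, 14 of 24 measured members were lower at tailbud and 2 were higher, with a median step of -0.56. Of all records 43.3% were lower. Under equal totals 9 members were lower and 5 higher, with a median of -0.248. Gdf3, the Vg1 ligand that pairs with Nodal, had 139 ± 13.2 at tailbud and 731 ± 132 at shield (step -2.35). The co-receptor gene tdgf1, known as one-eyed pinhead, had 855 ± 53.5 at tailbud and 2175 ± 198 at shield (step -1.34, adjusted p = 0.00053). The type I receptor gene acvr1ba, whose product is a target of SB505124, had 1545 ± 133 at tailbud and 3278 ± 427 at shield (step -1.08). The effector gene smad2 stood at 651 ± 15.6 at tailbud and 543 ± 32 at shield and was not called (step 0.26, adjusted p = 0.067), and smad3b rose to 93 ± 14.1 at tailbud, against 22 ± 3.76 at shield (step 1.86). The targets mixl1 and eomesa fell, to 38 ± 1.16 and 12 ± 2.08 at tailbud, against 262 ± 89.8 and 112 ± 25.3 at shield. Eomesa is also deposited in the egg.

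The other signalling pathways held members in both directions. In the FGF list 7 of 25 rose and 6 fell (median 0.19). The feedback gene spry4 rose to 586 ± 119 at tailbud, against 230 ± 21.5 at shield (step 1.33), whereas dusp6, another feedback gene, had 3050 ± 300 at tailbud and 3340 ± 260 at shield and was not called (step -0.13). In the Wnt list 13 of 37 rose and 5 fell (median 0.16). Wnt8a, the Wnt ligand of the margin, had 2467 ± 187 at tailbud and 1621 ± 215 at shield (step 0.60, adjusted p = 0.029), wnt3a of the tailbud had 121 ± 22.5 at tailbud and 27 ± 0.882 at shield (step 1.98), and wnt11f2, a ligand of convergence and extension, fell to 913 ± 26.6 at tailbud, against 1421 ± 248 at shield (step -0.64), a call that was lost under equal totals (adjusted p = 0.23). In the BMP list 10 of 36 rose and 13 fell, with a median of -0.15 that turned to 0.16 under equal totals. Bmp2b was not called, with 1860 ± 156 at tailbud and 1939 ± 107 at shield (step -0.06), and bmp4 fell to 1172 ± 64.6 at tailbud, against 1775 ± 23.4 at shield (step -0.60). The antagonist gene chrd rose to 4590 ± 468 at tailbud, against 2029 ± 129 at shield (step 1.18, adjusted p = 0.001). The dorsal BMP ligand gene admp fell to 122 ± 32.9 at tailbud, against 603 ± 51.9 at shield (step -2.26).

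In the retinoic acid list 11 of 24 members rose and 7 fell, with a median of 0.60. Aldh1a2, the enzyme of somites and lateral mesoderm that makes retinoic acid, fell to 83 ± 22.4 at tailbud, against 767 ± 121 at shield (step -3.13, adjusted p = 0.00056). Rdh10a, which makes its substrate, fell to 117 ± 43.8 at tailbud, against 443 ± 144 at shield (step -1.88, adjusted p = 0.023). The degrading enzyme gene cyp26a1 rose to 7789 ± 775 at tailbud, against 2910 ± 442 at shield (step 1.42), and the binding protein gene crabp2a rose to 223 ± 69.9 at tailbud, against 9 ± 0.333 at shield (step 4.03). Dhrs3a, which turns retinal back into retinol, was listed at 0 at shield and had 16 ± 2.73 at tailbud.

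The paraxial mesoderm list had 11 of 24 members lower and 8 higher, with a median step of -0.35. Under equal totals and with centred steps 9 were higher and 9 lower, and 43.3% of all records were lower, so that the list's falls stand near the background. Tbx6, a T-box factor of presomitic mesoderm, had 98 ± 50.5 at tailbud and 11 ± 0.667 at shield (step 2.69, adjusted p = 0.0062). Msgn1, of the same tissue, had 680 ± 362 at tailbud and 140 ± 47.2 at shield (step 2.24, adjusted p = 0.03), with an error over a wide part of its tailbud mean. Meox1 of formed somites had 26 ± 10.3 at tailbud and 4 ± 1.2 at shield (step 1.78). Of 12 measured muscle genes 5 rose and 2 fell. The myogenic factor gene myf5 had 47 ± 23.7 at tailbud and 11 ± 4.51 at shield (step 1.70, adjusted p = 0.047), and myod1 had 8 ± 3.38 at tailbud and 2 ± 1.2 at shield and was not called.

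In the endoderm list 9 of 17 members fell and 2 rose, with a median step of -0.63, while 43.3% of all records were lower. Under equal totals 7 members were lower and 4 higher, with a median of -0.335. Sox32, the Sox factor that commits cells to endoderm, fell to 230 ± 44.6 at tailbud, against 1494 ± 129 at shield (step -2.67), and is also made in the yolk syncytial layer. Its target sox17 was near 0 at both stages, with 7 ± 1.2 at tailbud and 9 ± 4.33 at shield. Foxa2, a forkhead factor of endoderm and midline, fell to 7 ± 2.19 at tailbud, against 29 ± 7.88 at shield (step -1.50, adjusted p = 0.0087). Gata5, a factor of endoderm and heart, had 913 ± 63.4 at tailbud and 743 ± 47.7 at shield and was not called (step 0.30, adjusted p = 0.089).

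Prechordal plate and hatching gland genes gave 7 higher and 5 lower of 16, with a median step of 0.65. Ctslb, the cathepsin of the hatching gland, had 3 ± 0.333 at tailbud and 2 ± 0.882 at shield and was not called. The hatching enzyme gene he1.1 was listed at 0 at shield and had 3 ± 0.577 at tailbud. Gsc, the organizer homeobox gene, had 87 ± 38.6 at tailbud and 24 ± 11.9 at shield and was not called (step 1.67, adjusted p = 0.066). Of the notochord and organizer list 6 of 18 rose and 6 fell, and its median of -0.27 turned to 0.02 under equal totals. The organizer gene lhx1a fell to 4 ± 0.577 at tailbud, against 44 ± 27.7 at shield (step -2.44, adjusted p = 0.016). Noto, needed for notochord, had 169 ± 24.2 at tailbud and 280 ± 53.8 at shield and was not called (step -0.71, adjusted p = 0.06). Gli1, a factor that reads out Hedgehog signalling from the midline, had 217 ± 26.5 at tailbud and 228 ± 7 at shield and was not called (step -0.07, adjusted p = 0.72). Of the floor plate and Hedgehog list 8 of 19 members rose and 3 fell (median 0.08).

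Of the lateral and intermediate mesoderm lists, each had few measured members. The heart and pharyngeal list had 8, with 2 higher and 3 lower. Hand2 rose to 57 ± 17.9 at tailbud, against 1 ± 0 at shield (step 3.37, adjusted p = 0.0004), whereas tbx1 was near 0 at both stages, with 2 ± 0.577 at tailbud and 6 ± 4.37 at shield. The blood and endothelium list had 14, with 2 higher and 3 lower. Tal1 had 22 ± 2.96 at tailbud and 22 ± 1.53 at shield. The pronephros list had 8, with 3 higher and 3 lower. Osr1, an early intermediate mesoderm gene, fell to 25 ± 2.33 at tailbud, against 123 ± 33.4 at shield (step -2.09, adjusted p = 0.0017), and pax8 rose to 39 ± 9.94 at tailbud, against 8 ± 2.85 at shield (step 1.76, adjusted p = 0.006).

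The yolk syncytial layer lies under the blastoderm and feeds the embryo. Genes listed for it went both ways in these whole embryos. Of 24 members 14 rose and 8 fell, with a median step of 1.86. The lipoprotein genes apoa1b and apobb.1 rose to 13533 ± 1472 and 8050 ± 2280 at tailbud, against 3380 ± 534 and 985 ± 170 at shield. Fabp2, a fatty acid binding protein, had 2636 ± 715 at tailbud and 89 ± 30.2 at shield (step 4.81, adjusted p = 0.0004). The homeobox gene mxtx2, which sets up this layer, fell to 3 ± 1.16 at tailbud, against 35 ± 19.8 at shield (step -2.32, adjusted p = 0.013). Its relative mxtx1 fell to 268 ± 22.7 at tailbud, against 749 ± 96.1 at shield (step -1.47), and hnf4a fell to 525 ± 28.5 at tailbud, against 1950 ± 159 at shield (step -1.88).

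Genes that every cell uses shifted list by list. The pattern for cytosolic ribosomal proteins took 93 records, of which 81 rose and 2 fell, with a median step of 0.51. The 2 that fell, rps6ka3a and rps6kb1b, are kinases that the name pattern also takes and are no ribosomal proteins. They are singled out because they fell. Members that rose or were not called may include other genes of this kind. Rpl3 had 33702 ± 912 at tailbud and 16378 ± 768 at shield (step 1.04, adjusted p = 0.00033), and rps3 had 13671 ± 365 at tailbud and 9579 ± 700 at shield (step 0.51). Splicing genes fell in 69 of 96 members and rose in 1, with a median step of -0.48, and under equal totals the counts became 35 lower and 13 higher. Prpf8, the core protein of the spliceosome, had 23113 ± 480 at tailbud and 32168 ± 1404 at shield (step -0.48, with the call lost under equal totals at an adjusted p of 0.18), and snrpd3 had 955 ± 23.1 at tailbud and 3726 ± 151 at shield (step -1.96). Mitosis genes fell in 48 of 75 members and rose in 12 (median -0.41), with 25 lower and 18 higher under equal totals. Ccna2 and ccnb1, the cyclins of the dividing cell, fell to 4183 ± 188 and 5927 ± 179 at tailbud, against 11538 ± 1920 and 11922 ± 1048 at shield.

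DNA replication, proteasome and respiratory chain genes had medians close to 0. The replication list gave 17 higher and 16 lower of 53 with a median of 0.02, but 29 higher and 6 lower with a median of 0.33 under equal totals. It held mcm2, higher with 5957 ± 303 at tailbud and 4147 ± 31.7 at shield, and the licensing factor gene cdt1, lower with 2873 ± 243 at tailbud and 8527 ± 1021 at shield. The proteasome list gave 8 higher and 16 lower of 51 with a median of -0.02, but 26 higher and 5 lower with a median of 0.30 under equal totals. Oxidative phosphorylation genes gave 19 higher and 22 lower of 95 with a median of -0.02, but 46 higher and 7 lower with a median of 0.29 under equal totals.

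The series is titled for neural tube closure, and the list of neural tube morphogenesis genes had 14 of 44 members higher and 18 lower, with a median step of -0.10 that turned to 0.21 under equal totals. Vangl2, a core gene of planar cell polarity, fell to 2524 ± 71.1 at tailbud, against 4319 ± 239 at shield (step -0.77, adjusted p = 0.0011). Celsr1b, another polarity gene, rose to 923 ± 131 at tailbud, against 85 ± 15.1 at shield (step 3.37, adjusted p = 0.00019). Shroom3, which drives apical constriction, had 313 ± 20.1 at tailbud and 222 ± 37.5 at shield and was not called (step 0.49, adjusted p = 0.087), while shroom4 rose to 1596 ± 330 at tailbud, against 205 ± 21.3 at shield (step 2.93). The receptor gene ptk7a was not called (step -0.21, adjusted p = 0.37). In the junction list 10 of 53 rose and 25 fell, with a median of -0.28 that turned to 0.03 under equal totals. In the collagen, laminin and integrin list 17 of 45 rose and 15 fell (median 0.13). The integrin genes itga3b and itga6b rose to 338 ± 139 and 730 ± 208 at tailbud, against 6 ± 1.2 and 30 ± 6.69 at shield, and itga5 fell to 1591 ± 190 at tailbud, against 5145 ± 210 at shield (step -1.69). Solute carrier genes fell in 96 of 200 members and rose in 36 (median -0.35), with 67 lower and 66 higher under equal totals.

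The same step in epiboly-treated embryos used 2 other groups and shares none with the sphere-treated step. Its calls numbered 4335 higher (32.5%) and 6397 lower (48%). Across the 13321 records the steps had a Pearson r of 0.925 and a Spearman rho of 0.915, a description over genes that are not independent and that share the table's normalization. The sphere-treated steps were narrower, with an SD over records of 1.05, against 1.42 for the epiboly-treated steps. Of the 1091 sphere-treated records that were called and rose at least 2-fold, 996 met the same rule in epiboly-treated embryos, which is 91.3% of the sphere-treated and 52.0% of the epiboly-treated list. Downward the shared number was 1911, which is 92.0% of the sphere-treated and 68.2% of the epiboly-treated list. The difference of the 2 steps was tested directly, with the spread taken as equal in the groups compared. It was above 0 in 1066 records (8%) and below 0 in 1588 (11.9%).

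The spread within the sphere-treated shield group moved with this result. For records at least 2-fold higher at tailbud in epiboly-treated embryos, the median relative SE was 10.3% in sphere-treated shield and 3.77% in epiboly-treated shield. For records at least 2-fold lower there, it was 7.90% in sphere-treated shield and 2.75% in epiboly-treated shield, and for all other records it was 4.24% and 2.28%. In the first class the shield level was higher in sphere-treated than in epiboly-treated embryos by a median of 0.49 on the log2 scale, and in the second it was lower, with a median of -0.39. At tailbud the same medians were -0.11 and 0.07. The classes were chosen on the epiboly-treated groups, which enter those ratios. The part of the wider spread and of these shield levels in the narrower steps was not tested.

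**Figure D3:**
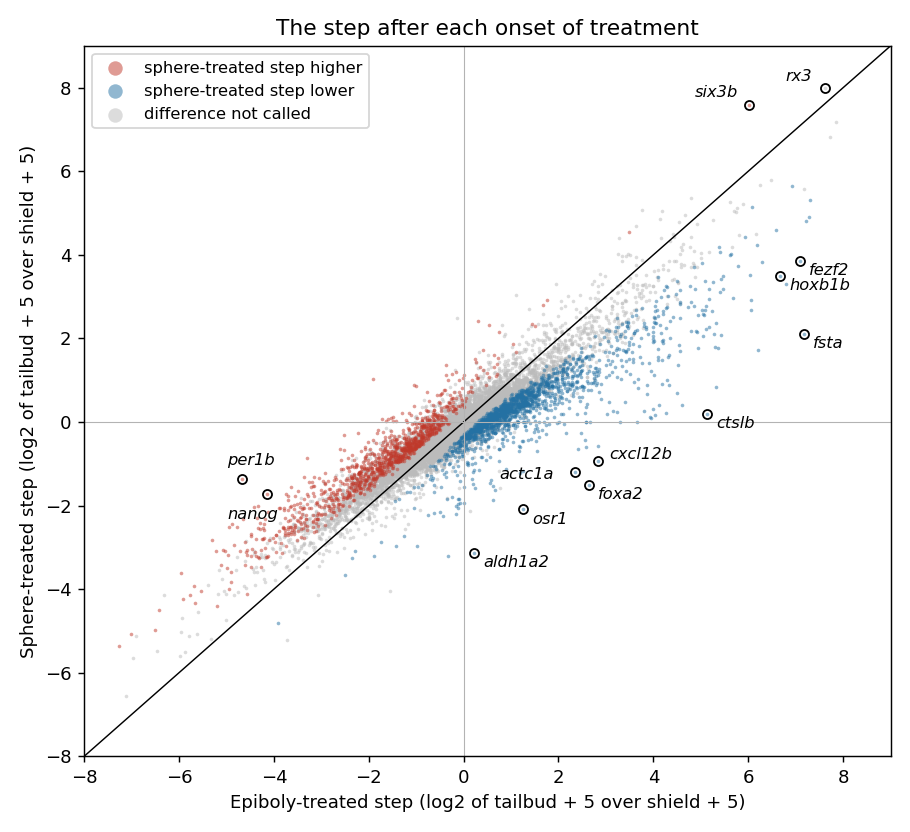
Step of each record in sphere-treated embryos (vertical) against its step in epiboly-treated embryos (horizontal), both on the log2 scale, coloured by the test of their difference, with the line marking equal steps. The cloud is flatter than the line, rx3 and six3b lie at its upper right end, and foxa2, osr1, actc1a, cxcl12b and aldh1a2 lie low on the right of the vertical zero line.

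The distance between the onset groups at each stage is given here list by list, as a description. Counts of called differences are to be read beside the 8% higher and 11.9% lower of all records. For forebrain and eye field genes the median log2 ratio of sphere-treated over epiboly-treated level was 0.10 at tailbud and 0.46 at shield, and 6 of 25 members had a called lower step while 1 had a higher one. Fezf2 was one of these, with a difference of -3.22 (adjusted p = 0.0094). It had 943 ± 86.3 at tailbud and 2 ± 0.667 at shield in epiboly-treated embryos, so that its smaller sphere-treated step lay at shield. Six3b was the one with a higher step, with a difference of 1.57 (adjusted p = 0.015), and for rx3 no difference was called (0.36, adjusted p = 0.39). Maternal genes had a median ratio of 0.27 at tailbud and -0.55 at shield, and 22 of 33 had a step less far below 0 in sphere-treated embryos, with the difference called higher. Nanog showed it most among the 4 lead genes of that list, with a difference of 2.42 (adjusted p = 0.01), from 293 ± 10.2 at tailbud and 5269 ± 449 at shield in epiboly-treated embryos. A mean of at least 100 at sphere-treated shield or tailbud was reached by 16 forebrain and 29 maternal members. The rest are in the table through other groups, so the ratios and counts of these lists are no test of direction.

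The paraxial mesoderm, prechordal and notochord lists stood further below 0 at tailbud than at shield, and were below 0 at shield too. So did the pronephros, heart and skeletal muscle lists, with ratios of -1.17, -0.73 and -0.38 at tailbud and -0.37, -0.19 and -0.04 at shield. The floor plate list was below 0 at tailbud but above 0 at shield. The endoderm and blood lists did not stand further below 0 at tailbud. Paraxial mesoderm genes had a median ratio of -2.09 at tailbud and -0.49 at shield, and 13 of 24 had a called lower step and 1 a higher one. Prechordal and hatching gland genes had ratios of -1.70 at tailbud and -0.22 at shield, with 7 of 16 called lower and 1 higher. Notochord and organizer genes had ratios of -1.64 at tailbud and -0.76 at shield, with 9 of 18 called lower and none higher. Floor plate and Hedgehog response genes had ratios of -0.35 at tailbud and 0.20 at shield, with 11 of 19 called lower and none higher. Endoderm genes had ratios of -0.22 at tailbud and -0.51 at shield, with 5 of 17 called lower and 3 higher, and blood and endothelium genes had -0.24 at tailbud and -0.27 at shield, with 1 of 14 called lower. Tbx6 had 1731 ± 148 at tailbud and 21 ± 2 at shield in epiboly-treated embryos, and its step differed by -3.37 (adjusted p = 0.0096). In epiboly-treated embryos ctslb had 240 ± 33.7 at tailbud and 2 ± 0 at shield, and its step differed by -4.94 (adjusted p = 6.7e-06). A mean of at least 100 at sphere-treated shield or tailbud was reached by 17 paraxial, 7 prechordal and 9 notochord members. It was reached by 14 floor plate, 13 endoderm and 6 blood members, and by 5 pronephros, 5 heart and 4 muscle members. The rest are in the table through other groups, so these ratios and lower-step counts are no test of direction.

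The Hox list had a median ratio of -0.78 at tailbud and 0.00 at shield, and 12 of 28 had a called lower step. The midbrain and hindbrain list had ratios of -0.39 at tailbud and 0.18 at shield, with 10 of 31 called lower. Hoxb1b had 3677 ± 169 at tailbud and 31 ± 1.2 at shield in epiboly-treated embryos, a difference of -3.17 (adjusted p = 0.0032). Meis3 had 2425 ± 58.8 at tailbud and 126 ± 6.89 at shield there, a difference of -2.32 (adjusted p = 0.00053). Retinoic acid genes had 10 of 24 called lower, among them aldh1a2 with 1209 ± 119 at tailbud and 1039 ± 48.7 at shield in epiboly-treated embryos (difference -3.35, adjusted p = 0.001), rdh10a (-2.50) and dhrs3a (-3.35). A mean of at least 100 at sphere-treated shield or tailbud was reached by 13 Hox, 25 midbrain and hindbrain and 18 retinoic acid members. The rest are in the table through other groups, so these ratios and lower-step counts are no test of direction either.

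**Figure D4:**
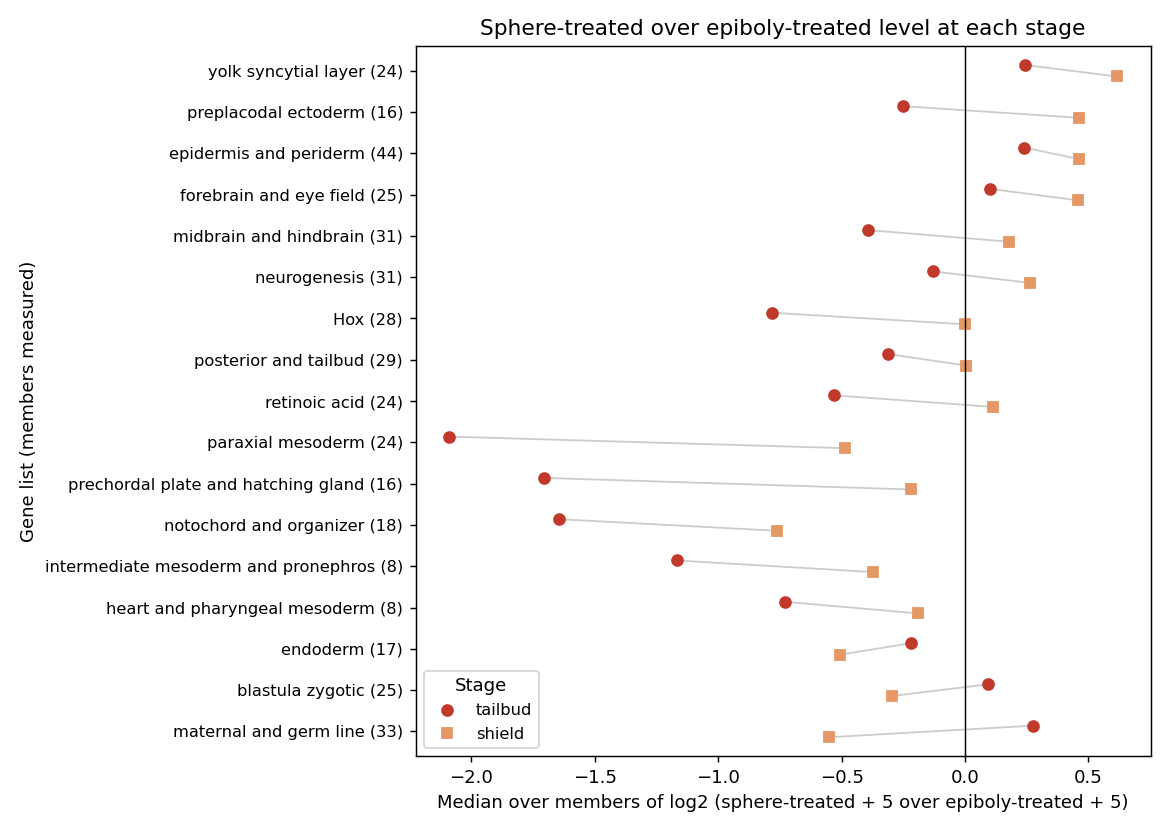
Median over the members of 17 gene lists of the log2 ratio of sphere-treated over epiboly-treated level, at tailbud (circles) and at shield (squares), with members measured in brackets. Paraxial mesoderm, prechordal, notochord and pronephros lists lie furthest left at tailbud, while ectodermal lists lie to the right at shield and the maternal list lies left at shield.

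The 10 largest negative differences were fsta, ctslb, ctslb.4, foxa2, fbln2, twist1a, plod2, cxcl12b, pax8 and actc1a. All but cxcl12b stayed under 101 at both sphere-treated stages, so they are in the table through other groups. Where epiboly-treated tailbud is such a group, as for ctslb, the negative difference follows in part from that rule. The ranking is therefore no test of direction. Fsta, which codes for the BMP and activin antagonist follistatin, had 47 ± 11.4 at tailbud and 7 ± 0.333 at shield in sphere-treated embryos, against 1871 ± 163 at tailbud and 8 ± 1.16 at shield in epiboly-treated embryos, a difference of -5.06 (adjusted p = 3.3e-05). Twist1a, a factor of mesoderm and head mesenchyme, had 10 ± 2.33 at tailbud and 9 ± 2.73 at shield in sphere-treated embryos, against 534 ± 58.5 at tailbud and 30 ± 2.65 at shield in epiboly-treated embryos, a difference of -3.85. Plod2, a collagen-modifying enzyme, and fbln2, a matrix protein gene, differed by -3.80 and -3.86. Their sphere-treated tailbud levels were 21 ± 3.46 and 22 ± 8.35, against 379 ± 53.3 and 437 ± 46.7 in epiboly-treated tailbud.

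The 10 largest positive differences were per1b, ccnp, prkcda, nanog, gjc4a.1, mxtx2, sspo, tnfrsf11a, wee2 and prdm16. In 9 of them the epiboly-treated step lay further below 0. Per1b, a gene of the circadian clock, had 65 ± 19.4 at tailbud and 176 ± 80.9 at shield in sphere-treated embryos, against 21 ± 3.46 at tailbud and 661 ± 28.4 at shield in epiboly-treated embryos, a difference of 3.31 (adjusted p = 0.013). The other was prdm16, a chromatin and transcription regulator, with 54 ± 22.9 at tailbud and 6 ± 2 at shield in sphere-treated embryos, against 26 ± 7 at tailbud and 20 ± 2.65 at shield in epiboly-treated embryos, a difference of 2.11 (adjusted p = 0.04).

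Opposite calls were few. Lower in sphere-treated and higher in epiboly-treated embryos were 40 records. The difference was called for all 40, but they were chosen by opposite calls on the same values, so this adds no separate evidence. Under equal totals such records numbered 24 and with centred steps 27. Both steps were at least 2-fold in 3 of them, foxa2, actc1a and osr1, named here after their values were seen, as are cxcl12a and gpia below, and under either of those scalings in 2, foxa2 and osr1. Foxa2 had 402 ± 47.6 at tailbud and 60 ± 8.41 at shield in epiboly-treated embryos (difference -4.15, adjusted p = 0.00046). Actc1a, a cardiac and muscle actin gene, had 12 ± 3.46 at tailbud and 34 ± 3.28 at shield in sphere-treated embryos, against 147 ± 26.6 at tailbud and 25 ± 4.37 at shield in epiboly-treated embryos (difference -3.54). Osr1 had 582 ± 49.2 at tailbud and 241 ± 4.1 at shield in epiboly-treated embryos (difference -3.35). The chemokine genes cxcl12b and cxcl12a, whose products guide migrating cells, were among the 40, with differences of -3.77 and -2.17. Cxcl12b had 143 ± 10.7 at tailbud and 277 ± 26.6 at shield in sphere-treated embryos, against 1579 ± 122 at tailbud and 216 ± 9.35 at shield in epiboly-treated embryos.

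Higher in sphere-treated and lower in epiboly-treated embryos were 13 records, and 22 under either of the other scalings. All 13 had a called difference, but they too were chosen by opposite calls on the same values. They included egln3, a prolyl hydroxylase that low oxygen induces, with 156 ± 20 at tailbud and 58 ± 21.3 at shield in sphere-treated embryos, against 46 ± 3.51 at tailbud and 61 ± 3.28 at shield in epiboly-treated embryos (difference 1.73, adjusted p = 0.031). Gpia, a glycolytic isomerase gene, had 474 ± 47.6 at tailbud and 294 ± 20.2 at shield in sphere-treated embryos, against 360 ± 26.7 at tailbud and 503 ± 11.5 at shield in epiboly-treated embryos (difference 1.16). Over the low-oxygen and glycolysis list the sphere-treated step was called higher than the epiboly-treated one in 10 of 29 members and lower in 1. Over all records the shares were 8% higher and 11.9% lower. Within the sphere-treated step 10 of these 29 rose and 11 fell, with a median of 0.13. Gapdhs rose to 664 ± 228 at tailbud, against 128 ± 2.6 at shield (step 2.33, adjusted p = 0.0027), and its step exceeded the epiboly-treated one by 1.80 (adjusted p = 0.03). Without moderation the differences of egln3 and gapdhs were not called (adjusted p = 0.064 and 0.062). Nor was the sphere-treated step of egln3 (adjusted p = 0.090).

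**Figure D5:**
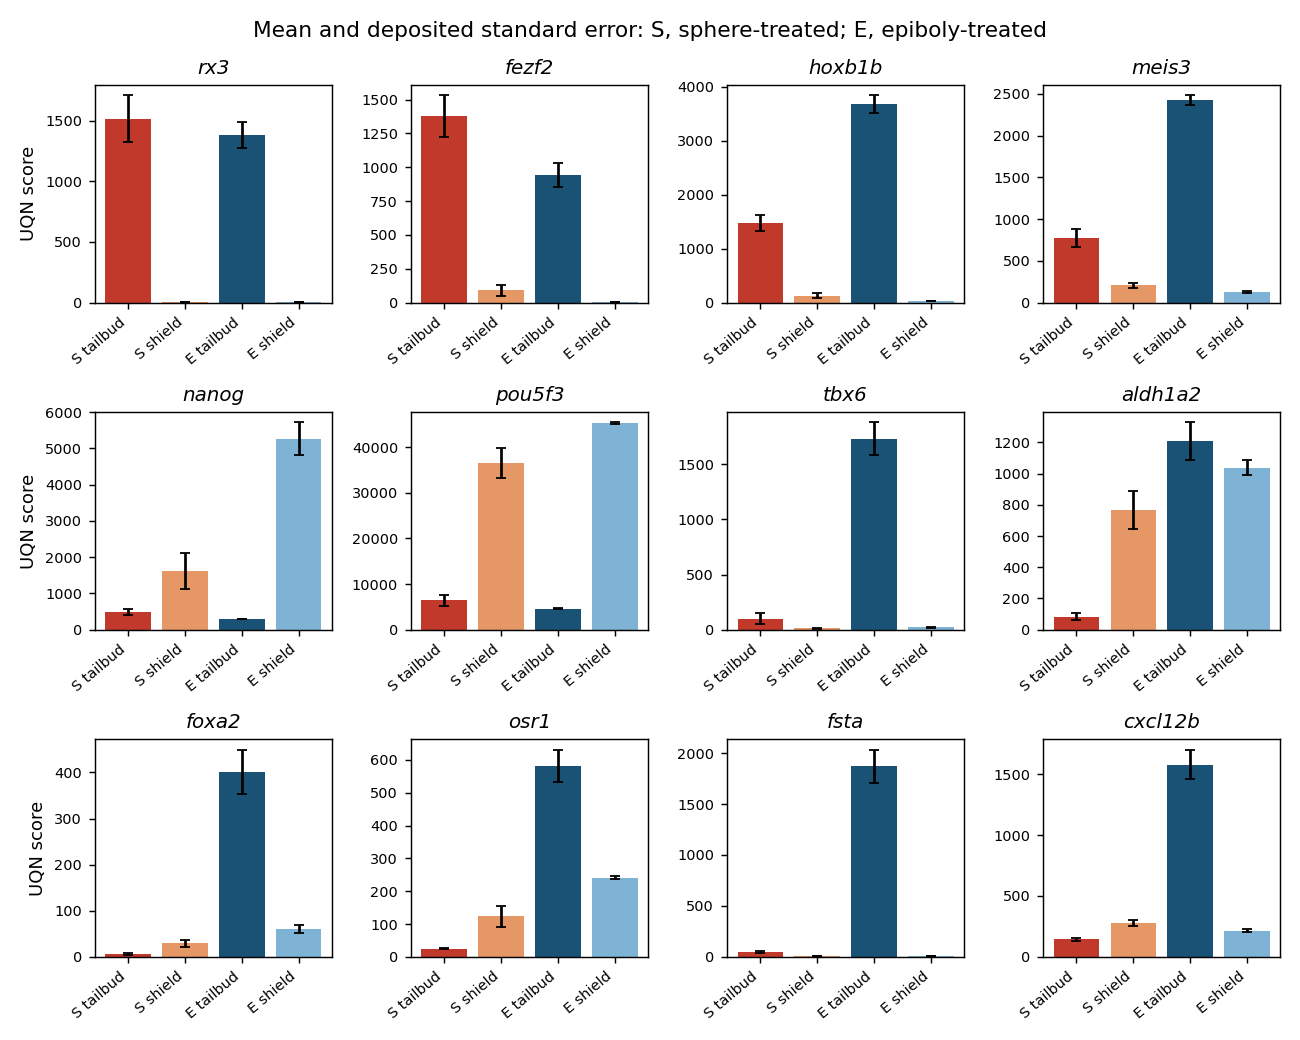
Group mean with deposited standard error, in upper-quartile normalized units on axes that start at 0, for 12 genes in sphere-treated tailbud, sphere-treated shield, epiboly-treated tailbud and epiboly-treated shield. Rx3 and fezf2 are high at tailbud after either onset, whereas tbx6, foxa2, osr1, fsta and cxcl12b are highest in the epiboly-treated tailbud group of these 4.

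By 7 somites some of the genes that were low at tailbud had higher means in sphere-treated embryos, and others had not. Tbx6 had 11 ± 0.667 at shield, 98 ± 50.5 at tailbud and 2373 ± 534 at 7 somites. Fsta had 7 ± 0.333 at shield, 47 ± 11.4 at tailbud and 569 ± 168 at 7 somites, and actc1a had 34 ± 3.28, 12 ± 3.46 and 329 ± 72.8 in the same order of stages. Ctslb stayed near 0 with 2 ± 0.882 at shield, 3 ± 0.333 at tailbud and 1 ± 1 at 7 somites, as did sox17 with 9 ± 4.33, 7 ± 1.2 and 4 ± 1.86. Rx3 had 1 ± 0.667 at shield, 1515 ± 194 at tailbud and 1563 ± 102 at 7 somites. Tested in the same way, the step from tailbud to 7 somites was 4.53 for tbx6 (adjusted p = 0.0022), 3.46 for fsta (adjusted p = 0.0015) and 4.30 for actc1a (adjusted p = 0.00052). It was not called for ctslb (-0.42, adjusted p = 0.13), sox17 (-0.42, adjusted p = 0.23) or rx3 (0.04, adjusted p = 0.85). These steps share the sphere-treated tailbud group with the steps above. Tbx6, fsta and actc1a were under 101 at sphere-treated shield and tailbud, so they are in the table through other groups. Fsta and actc1a were also among the largest negative differences, a ranking that takes in the tailbud mean. Their rises to 7 somites are therefore no separate evidence.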

How the data were processed

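Total RNA of pooled whole zebrafish embryos, labelled as 6 samples, was sequenced after a TruSeq library kit, per the labels' protocols. Whether the values behind each group mean came from separate pools is not known. The authors deposited 1 table with a mean score and a standard error per group, named upper-quartile normalized in its headers, for 13321 records. The submitters' processing notes name DESeq 1.6.1 without a role, and the sources used here give no aligner or build. No read totals per sample can be had from such scores, so depth is unknown. The lowest value of a record's highest group mean was 101, so records low in every group are not in the table. Symbols came from RefSeq gene tables for 12182 records by gene ID and 42 by accession (1097 were unmatched and kept under their IDs).

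Of 11992 deposited errors between 0 and 5, all 11992 lie on the grid of a standard error of 3 whole-number values, and 8.98% of all numbers with 3 decimals do. Steps are log2 ratios with a constant of 5. Their variances came from the deposited errors by the delta method and were moderated with limma 3.58.1 (squeezeVar, 4 degrees of freedom for a step and 8 for the difference of 2 steps) in R 4.3.3. These degrees of freedom take the spread as equal in the groups compared. Where a single group holds most of a record's spread, as sphere-treated shield does for fezf2, the p-values can be too small. None of the alternatives below dropped equal spread. The test was checked on simulated data in which every group followed the same rule for its spread, so groups of unequal spread were not covered. Figures used matplotlib 3.10.9.

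The gene lists and members were chosen with earlier results of these data known. Named genes are the 12 largest rises and 12 largest falls among called records with a gene name, in each list up to 4 lead members and the 3 highest and 3 lowest members, and the 10 largest called differences in each direction. A symbol with several records is given by its highest one. Some genes are not reported here. Alternatives changed the constant, scaling, low-value filter, variance model, number of values and 1 record per gene.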

Additional observations from a re-analysis of the deposited data

Results flagged for a closer look

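A gene stands here because its step from shield to tailbud in sphere-treated embryos differed from that in epiboly-treated embryos by limma's test of the difference itself, at an adjusted p under 0.05 over all 13321 records. The values are the sphere-treated step minus the epiboly-treated step on the log2 scale, and no explanation is offered for them. Genes are grouped by direction after their values were seen, so that a group's direction describes no gene list. Genes under 101 at both sphere-treated stages of the step are in the table through other groups. Among the mesodermal genes named, a lower sphere-treated step was called for twist1a at -3.85, pax8 at -3.60, actc1a at -3.54, meox1 at -3.51, tbx6 at -3.38, osr1 at -3.35, tbx1 at -3.05, myod1 at -2.98, myf5 at -2.86 and hand2 at -1.72. Among the genes of the prechordal plate, hatching gland, endoderm and midline named, a lower sphere-treated step was called for ctslb at -4.94, ctslb.4 at -4.48, foxa2 at -4.15, he1.1 at -3.19, sox17 at -1.78 and gli1 at -1.12. Among the genes of the retinoic acid pathway, BMP and activin antagonists, chemokines and matrix named, a lower sphere-treated step was called for fsta at -5.06, fbln2 at -3.86, plod2 at -3.80, cxcl12b at -3.77, aldh1a2 at -3.35, dhrs3a at -3.35, rdh10a at -2.50 and cxcl12a at -2.17. Among the Hox, posterior and hindbrain genes named, a lower sphere-treated step was called for hoxb1b at -3.17, cdx1a at -2.76, fgf8a at -2.54, meis3 at -2.32, hoxb2a at -2.20, hoxc8a at -2.00, hoxb5a at -1.74, wnt8a at -1.45, hoxc3a at -1.27 and cdx4 at -1.20. Among the neural and forebrain genes named, a lower sphere-treated step was called for fezf2 at -3.22, dla at -2.15, neurog1 at -1.97, pax6b at -1.95, otx1 at -1.92, pax3a at -1.62, ebf2 at -1.34, six3a at -1.23, zic1 at -1.22, celsr1b at -1.13, olig2 at -0.93 and cdh2 at -0.65. Among the epidermal, placodal and yolk genes named, a lower sphere-treated step was called for dlx3b at -2.89, fabp2 at -2.41, tp63 at -1.75 and eppk1 at -0.90. Among the maternal and cell division genes named, a higher sphere-treated step was called for ccnp at 2.44, nanog at 2.42, wee2 at 2.14, ccna1 at 1.93, cth1 at 1.76, h1m at 1.74, ccna2 at 0.83, zar1 at 0.75 and cdt1 at 0.64. Among the genes of the blastula, its signals, the posterior margin and the yolk layer named, a higher sphere-treated step was called for mxtx2 at 2.33, mxtx1 at 1.46, eomesa at 1.43, vent at 1.23, tdgf1 at 1.12, eve1 at 0.91 and vox at 0.67. Among the epithelial and neural genes named, a higher sphere-treated step was called for sspo at 2.33, six3b at 1.57, shroom4 at 1.18, grhl3 at 1.09, grhl2b at 1.05, cdh1 at 0.82 and sox3 at 0.65. Among the low-oxygen and glycolysis genes named, a higher sphere-treated step was called for gapdhs at 1.80, egln3 at 1.73 and gpia at 1.16. Among the other genes named, a higher sphere-treated step was called for per1b at 3.31, prkcda at 2.43, gjc4a.1 at 2.40, tnfrsf11a at 2.22, prdm16 at 2.11, bcas3 at 1.64, cxcr4b at 1.16, rps6ka3a at 0.94 and cnksr2b at 0.81.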

How the results depend on the processing

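Scaling decided the balance of directions. With equal group totals 4499 records were higher and 3403 lower at tailbud, 1654 and 1382 of them at least 2-fold, and the median step turned to 0.081. List medians turned there to 0.016 (notochord and organizer), 0.16 (BMP), 0.21 (neural tube morphogenesis), 0.30 (proteasome), 0.29 (oxidative phosphorylation) and 0.029 (cadherin, catenin and claudin), and steps of genes that were not called turned to 0.10 for cdh1, 0.026 for vox, 0.18 for dusp6, 0.25 for bmp2b, 0.24 for gli1 and 0.10 for ptk7a. The called step of rps6kb1b turned to 0.0038. Centred on the median, the splits were 3956 higher and 3963 lower, and 1486 and 1537 at least 2-fold. Centring turned the medians of BMP to 0.077, neural tube morphogenesis to 0.13, proteasome to 0.21 and oxidative phosphorylation to 0.21, and steps to 0.018 for cdh1, 0.10 for dusp6, 0.17 for bmp2b, 0.0047 for sox17, 0.16 for gli1 and 0.016 for ptk7a. With members kept only at a mean of at least 100 in 1 of the groups compared, list medians turned to 0.60 (notochord and organizer), -0.035 (pronephros), -0.17 (low-oxygen and glycolysis) and -0.15 (collagen, laminin and integrin). The shifts follow from the scalings' construction, and for the filter the cause was not tested.

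The difference of steps was called higher in 687 records without moderation and in 470 with 2 values per mean, and lower in 827 with 2 values. Without moderation 11 of the named steps (among them otx1, msgn1, myf5, lhx1a, rdh10a, wnt8a, egln3 and mxtx2) and 25 of the named differences lost their call. Both constants, the variance trend, the pooled spread and 1 record per gene kept every count over all records within 1.5 times, but single calls were lost. With a constant of 1 these were the differences of hoxb2a (adjusted p = 0.10), mxtx2 (0.079), sox17 (0.069) and hoxc3a (0.059), and with 20 the steps of myf5 (0.054) and he1.1 (0.070) and the differences of zic1 (0.059) and prdm16 (0.058). The variance trend lost the steps of he1.1 (0.19) and plod2 (0.071). With 2 values per mean 11 named differences (adjusted p between 0.050 and 0.075) and the step of rps6kb1b (0.11) lost their call. No paired analysis was possible because each group is deposited as 1 mean and 1 standard error. For the same reason no replicate could be left out, the count test could not be run, and depth sets no stated limit.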
